A study of Mus musculus with 8 samples.

Results

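The TREM, CD300, paired immunoglobulin-like and Fc receptors, with their signalling partners, were followed in cells labelled as colonic macrophages and sorted by surface GPR35. Members were the genes whose symbols begin with Trem, Pira, Pirb, Lilr, Cd300, Fcgr, Fcer, Fcrl, Sirp, Cd200r or Pilr, together with Tyrobp, Hcst, Lair1, Mpeg1, Ptpn6, Inpp5d and Syk. These names took in 54 of the 14980 genes in the table. Genes were matched by symbol alone, but the names themselves were chosen with earlier results of these data known. Of the 54, 53 passed the filter on low counts; Fcer1a, the IgE-binding chain of the high-affinity IgE receptor, did not, with between 0 and 27 counts in a library. By what each is known to do, 29 are activating receptors, 9 are inhibitory receptors, 3 are signalling adaptors, 3 are a kinase or phosphatase and 1, Mpeg1, is a pore-forming protein. The other 9 are receptors of other or mixed function.

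The cells came from the lamina propria of the colon of 4 male mice. They were gated on MHC class II and CD64, and each mouse gave a GPR35-positive and a GPR35-negative population. The groups are therefore 4 GPR35-positive and 4 GPR35-negative libraries, and they share animal and gate; the labels state no strain, age or treatment. The gate itself is a member, because CD64 is the product of Fcgr1. Animals are numbered 1 to 4 as the replicates of the labels, and values for several libraries are given in that order.

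Gpr35 lay between 56.3 and 91.9 CPM (read counts scaled to library size, with TMM factors) in the positive libraries and between 1.13 and 4.69 CPM in the negative ones, so the labels held in all 8. Total counts ran from 33.8 to 48.6 M in positive and from 16 to 30.1 M in negative libraries. The macrophage label was checked on 21 identity genes, none of them a member: their summed level was 47505 to 56225 CPM in positive libraries, and 24494, 12038, 5374 and 7217 CPM in the negative libraries of animals 1 to 4. Jchain, an antibody chain made by plasma cells, took 0.0589 to 0.197% of the counts in positive and 7.37 to 14.1% in negative libraries. The negative libraries thus did not hold macrophage RNA alone, and the macrophage label holds less well for them. In bulk RNA, fewer cells of a type and less RNA per cell cannot be told apart, and the part of these other transcripts in the results below was not tested.

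Most activating receptors here have short tails and signal through a partner adaptor with an immunoreceptor tyrosine-based activation motif (ITAM), either DAP12 (Tyrobp) or the Fc receptor gamma chain (Fcer1g). Phosphorylated ITAMs recruit the kinase SYK. Inhibitory receptors carry inhibitory motifs (ITIMs) in their own tails, which recruit the phosphatases SHP-1 (Ptpn6) and SHIP-1 (Inpp5d). Many of these receptors lie in paired clusters in which near-copies of opposite sign sit side by side, and macrophages use them to read antibody, lipids, collagen and proteins of neighbouring cells.

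The promoters of these genes were also searched for short sites of transcription factors, whose part in the levels below was not tested. Promoter sequences, each running from 250 bases before to 50 after a start site, were available from RefSeq (GRCm38.p6) for 43 of the 54 genes, 47 promoters in all. The 8 bases GAGGAAGT, a form of the site bound by the myeloid factor PU.1, occurred on either strand in 13 of these 47 promoters (27.7%), against 3.20% of 32851 promoters of all genes and 3.34% of 14148 promoters of tested genes. The 13 are not independent, since Pira1, Pira2, Pirb and Lilra6 are near-copies, as are Cd300ld, Cd300ld3, Cd300ld4 and Cd300ld5; the others were Cd300lf, Fcgr4, Fcrl1, Fcrlb and Inpp5d. Examples follow as the 250 bases before the start site, read 5′ to 3′ on the gene's strand: an inhibitory receptor and its activating near-copy, an Fc receptor and a phosphatase. Capitals mark GAGGAAGT or, in Fcgr4, its reverse complement ACTTCCTC.
Pirb, chr7:3720383-3720632, minus strand: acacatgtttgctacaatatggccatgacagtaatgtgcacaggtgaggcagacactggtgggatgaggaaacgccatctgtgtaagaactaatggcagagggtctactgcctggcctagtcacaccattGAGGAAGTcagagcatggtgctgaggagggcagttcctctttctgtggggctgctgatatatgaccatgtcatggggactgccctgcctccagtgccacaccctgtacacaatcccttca
Pira1, chr7:3739918-3740167, minus strand: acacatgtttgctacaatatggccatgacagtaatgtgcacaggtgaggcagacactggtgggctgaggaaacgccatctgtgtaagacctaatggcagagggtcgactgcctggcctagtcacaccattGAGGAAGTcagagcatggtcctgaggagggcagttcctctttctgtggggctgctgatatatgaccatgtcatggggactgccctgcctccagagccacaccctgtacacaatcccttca
Fcgr4, chr1:171018676-171018925, plus strand: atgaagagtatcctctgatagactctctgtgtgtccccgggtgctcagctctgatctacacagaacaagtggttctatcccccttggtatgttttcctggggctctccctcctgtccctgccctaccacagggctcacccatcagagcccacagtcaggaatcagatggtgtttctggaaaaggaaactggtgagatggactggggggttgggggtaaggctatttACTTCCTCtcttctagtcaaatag
Inpp5d, chr1:87620062-87620311, plus strand: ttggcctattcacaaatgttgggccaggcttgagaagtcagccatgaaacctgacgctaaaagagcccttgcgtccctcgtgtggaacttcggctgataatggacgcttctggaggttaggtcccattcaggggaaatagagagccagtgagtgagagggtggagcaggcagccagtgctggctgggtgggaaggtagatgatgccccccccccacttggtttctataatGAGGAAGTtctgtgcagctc
The match began at -120 from the start site in both Pirb and Pira1, whose windows were identical at 245 of 250 bases, at -24 in Fcgr4 and at -20 in Inpp5d. Another myeloid element, the composite site of PU.1 with interferon regulatory factors (GGAA, any 2 bases, GAAA), was found on either strand in 3 promoters (6.38%, against 2.72% of all), those of Fcgr2b, Lilra5 and Pilra. The C/EBP palindrome TTGCGCAA was in 0 of the 47 and in 0.183% of all promoters. These searches overlap in part, since GAGGAAGT and the composite site share the bases GGAA, and a match says only that the letters are there.

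Receptor transcripts took a larger share of the counts in GPR35-positive cells. Members together took 1.38, 1.35, 1.31 and 1.38% of all counts in the positive libraries of animals 1 to 4. In the negative libraries they took 0.783, 0.411, 0.228 and 0.265%. The groups did not overlap, with means of 1.35 ± 0.0326% and 0.422 ± 0.253% (SD, n = 4 each), and the negative library of animal 1 stood nearest to the positive ones.

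In edgeR's quasi-likelihood test over 14184 genes, called at a Benjamini-Hochberg adjusted p under 0.05, 37 of the 53 tested members were higher in GPR35-positive cells, against 18.5% of all genes. Lower were 2, Fcer2a and Fcrla, against 19.5% of all genes, and 14 were not called. The median log2 fold change of the 53 was 2.30, beside -0.05 over all genes. Levels did not overlap between groups for 42 members in the higher direction (21.5% of all genes) and for 1 in the lower (20.6%), and 29 members passed a log2 fold change of 2, as did 4.18% of all genes. By role, 20 of 28 activating receptors rose with a median over all 28 of 2.69, 9 of 9 inhibitory receptors rose with a median of 2.35, and the 3 adaptors and 3 enzymes all rose on this scale; the scaling described next reverses some of these. With the animals as a block 38 members were higher and 4 lower (19.4% and 20.0% of all genes), and with libraries scaled by their totals alone 34 were higher and 3 lower (11.9% and 29.6%).

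Most of the 21 identity genes moved the same way, with 18 of 21 called higher and a median of 2.02. The other 3 were not called. Maf (0.75, adjusted p = 0.207) and Mrc1 (0.71, adjusted p = 0.276) were above 0, and Cd163 was below it (-1.50, adjusted p = 0.123). To read receptors against all 21 identity genes, every library was also scaled so that the geometric mean of these genes was equal. This identity scaling moves the median of all genes to -2.35 and leaves 0.776% of genes called higher and 81.5% lower. Under it, 11 members were called higher: Treml4, Sirpb1a, Sirpb1b, Pilrb1, Cd300c2, Pira2, Fcgr4, Pilra, Cd300a, Lair1 and Mpeg1. With the animals as a block besides, the calls of Cd300c2, Pira2, Fcgr4 and Lair1 ended (adjusted p = 0.0564, 0.0784, 0.0775 and 0.097). Trem1, not called under identity scaling alone, was called with both, so 8 members were higher. Under identity scaling without the block, another 9 were called lower and 33 were not called, and the median of the members was 0.45, which is 2.80 above that of all genes (2.35 above without this scaling). In both scalings 48 of the 53 members lay above the median of all genes. The direction of 14 members, from positive to negative, depended on it: Fcgr3, Cd300ld, Cd300ld3, Cd300ld4, Cd300ld5, Lilra5, Cd200r1, Cd200r4, Hcst, Syk, Ptpn6, Inpp5d, Fcrls and Fcgrt.

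**Figure D1:**
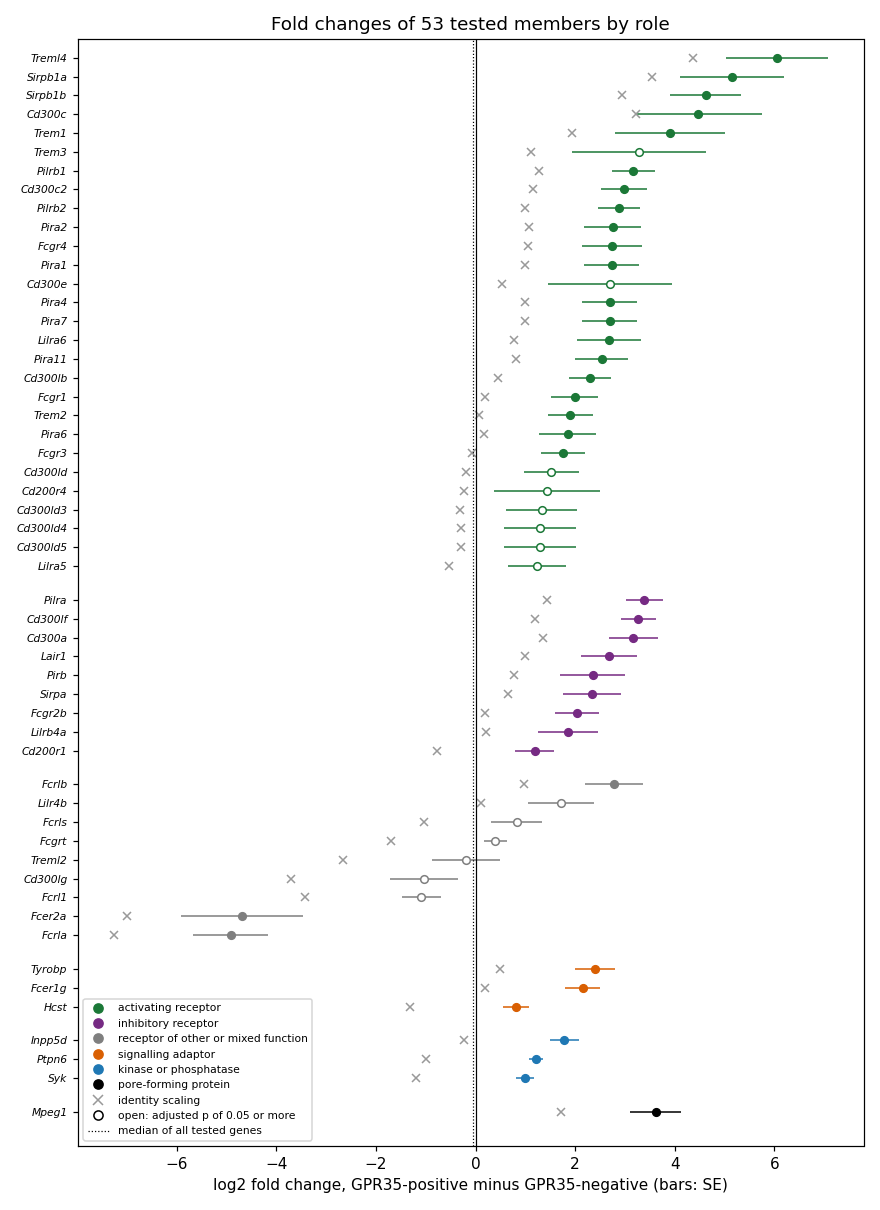
Log2 fold change (x axis, GPR35-positive minus GPR35-negative) of the 53 tested members, grouped by role; circles are edgeR estimates with SE bars, filled where the adjusted p was under 0.05, and crosses are the same genes under identity scaling. The dotted line is the median of all tested genes without identity scaling, -0.05. All 28 tested activating and 9 inhibitory receptors have circles above 0, and the crosses of 14 members, Fcgr3, Syk and Ptpn6 among them, fall on the other side of 0 from their circles.

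The adaptors through which activating receptors signal were higher in positive cells, although Hcst turned negative under identity scaling. Fcer1g was the most abundant member per length, at 2091 CPM per kb in positive and 473 CPM per kb in negative libraries. Its level was 1290, 1612, 1236 and 1366 CPM in positive libraries against 563, 273, 169 and 238 CPM in negative ones. The lowest positive library was above the highest negative one, and the log2 fold change was 2.15 ± 0.35 (SE, adjusted p = 0.00202). Tyrobp, second per length at 1720 CPM per kb in positive libraries, was at 908, 1111, 864 and 1010 CPM in these and at 355, 175, 92.4 and 123 CPM in negative libraries. It also separated the groups, with a log2 fold change of 2.39 ± 0.40 (adjusted p = 0.00216). Both were near 0 against the identity genes (0.19 for Fcer1g and 0.49 for Tyrobp, adjusted p = 0.695 and 0.304). Hcst encodes DAP10, an adaptor that recruits phosphoinositide 3-kinase in place of SYK. It was scarce, at 18.6, 22.2, 15.5 and 16.4 CPM in positive and 12.5, 13.9, 7.39 and 7.78 CPM in negative libraries. Its log2 fold change was 0.81 ± 0.26 (adjusted p = 0.0382) but -1.31 under identity scaling (adjusted p = 0.0347), and the call ended without animal 1, 3 or 4 (adjusted p from 0.0746 to 0.123). The Hcst call also ended under library-size scaling (0.52, adjusted p = 0.112). The same held without any single positive library or the negative one of animal 3 or 4 (adjusted p from 0.0542 to 0.0936). Hcst and Tyrobp are neighbours on chromosome 7 (chr7:30417712-30419854 and chr7:30413782-30417582).

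**Figure D2:**
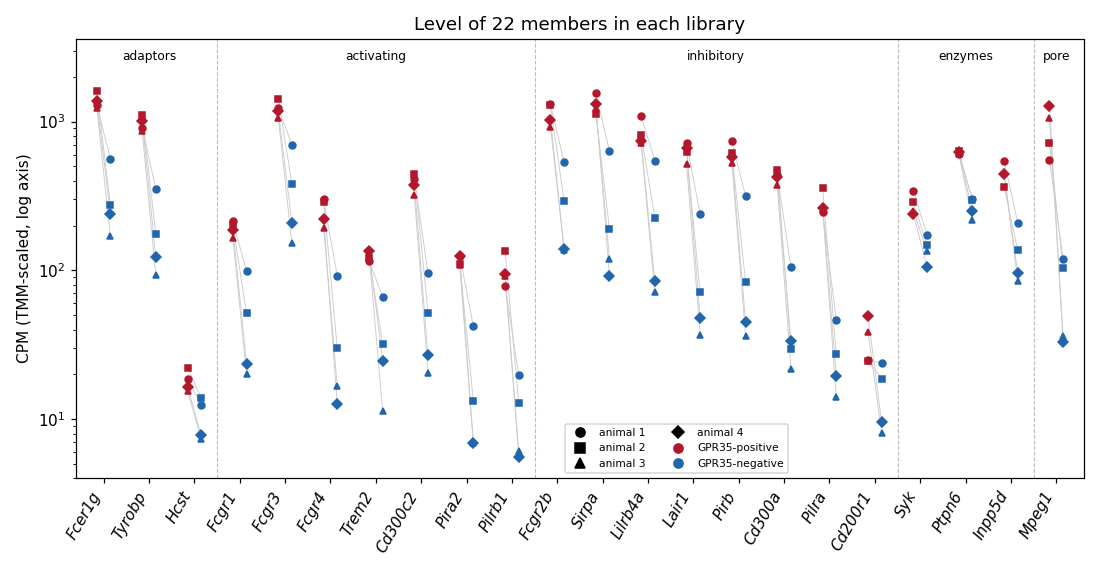
Level in CPM (log axis) of 22 members in each of the 8 libraries, red for GPR35-positive and blue for GPR35-negative, with a marker shape for each animal and grey lines joining the libraries of an animal. For all 22 the positive library lies above the negative one of the same animal on this TMM scale, although for Fcgr3, Hcst, Cd200r1, Syk, Ptpn6 and Inpp5d the fold change turns negative under identity scaling; the circle of animal 1 is the highest blue point for 21 of the 22, Hcst excepted.

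All 4 classical Fc gamma receptors, which bind IgG, were higher in positive cells, although Fcgr3 turned to -0.08 under identity scaling. Fcgr3 and the inhibitory Fcgr2b, both low-affinity receptors, lie near Fcgr4 on chromosome 1, whereas Fcgr1 is on chromosome 3 (chr3:96282909-96293969). Fcgr3 (chr1:171051169-171065915) was at 1228, 1422, 1063 and 1170 CPM in positive and 701, 383, 152 and 209 CPM in negative libraries, and was the most abundant receptor per length (902 and 267 CPM per kb). The groups were apart, with a log2 fold change of 1.76 ± 0.44 (adjusted p = 0.0129) and -0.08 under identity scaling (adjusted p = 0.866). Fcgr1, whose product was used for the gate, had levels of 214, 202, 165 and 188 CPM in positive cells and 98.4, 51.6, 20 and 23.5 CPM in negative cells. It was thus detected in every negative library but higher in each positive one, with a log2 fold change of 1.99 ± 0.47 (adjusted p = 0.0105) and 0.20 under identity scaling.

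Fcgr4 encodes FcgRIV, the activating receptor for IgG2a and IgG2b. Its level was 300, 290, 194 and 223 CPM in positive and 91.3, 30.1, 16.8 and 12.6 CPM in negative libraries. No negative library came near the positive ones, and the log2 fold change of 2.74 ± 0.60 (adjusted p = 0.00744) was the only one of the 4 that stayed called against the identity genes (1.06, adjusted p = 0.0366), though not with the animals as a block as well (1.08, adjusted p = 0.0775). Fcgr2b, the inhibitory Fc gamma receptor (chr1:170960558-170976071), was at 1310, 1290, 927 and 1032 CPM in positive and 536, 293, 137 and 140 CPM in negative libraries. Its log2 fold change was 2.04 ± 0.44 (adjusted p = 0.00685) and 0.19 under identity scaling. Leaving out animal 2 or animal 4 ended the calls of Fcgr1 (adjusted p = 0.0549 and 0.0543) and Fcgr3 (0.0664 and 0.0695).

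The TREM cluster on chromosome 17, from Trem1 (chr17:48232713-48246927) to Trem2 (chr17:48346401-48352276), held both a large fold change and a very small one. Treml4, a receptor that binds dead cells and signals through DAP12, was at 37.1, 59, 27.4 and 28.5 CPM in positive libraries. In negative libraries it was at 1.5, 0, 0.639 and 0 CPM, from 49, 0, 16 and 0 counts. That is the largest log2 fold change of the members, 6.05 ± 1.02 (adjusted p = 0.00234), and it was 4.36 under identity scaling (adjusted p = 0.00258). Trem1, which amplifies inflammatory responses and is best known from neutrophils and monocytes, was at 14.8, 20.9, 6.97 and 5.42 CPM in positive and 0.642, 2.38, 0.32 and 0 CPM in negative libraries. The lowest positive library exceeded every negative one, with a log2 fold change of 3.90 ± 1.11 (adjusted p = 0.0227). That call ended without animal 1 (adjusted p = 0.0977), without animal 3 (0.0761), in limma voom (4.48, adjusted p = 0.092) and under identity scaling (1.94, adjusted p = 0.0899), and without any of 3 single libraries, the positive ones of animals 1 and 2 and the negative one of animal 3 (adjusted p = 0.0563, 0.0578 and 0.054). With the animals as a block added to identity scaling, Trem1 was called higher. The summed level of 8 neutrophil markers overlapped between groups, at 148 to 200 CPM in positive and 29.9 to 214 CPM in negative libraries. Of 7 tested neutrophil markers, the 2 called were higher in positive cells, Csf3r (2.39, adjusted p = 0.013) and Mmp8 (5.00, adjusted p = 0.0169), while S100a8 was at most 3.74 CPM in any library. Of 10 monocyte markers 4 were higher, Ccr2, Chil3, Hp and Ms4a4c, and 2 were lower, Ly6c2 and Vcan; these genes were chosen after their values were seen. Chil3 and Hp were, like Trem1, highest in the positive library of animal 2 (64.3 and 21.8 CPM), and the part of such cells was not tested.

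Trem2, a lipid and apolipoprotein receptor of tissue macrophages, was even across positive libraries, at 116, 122, 130 and 134 CPM. In negative libraries it was at 66.6, 32, 11.3 and 24.6 CPM. The groups did not overlap, and the log2 fold change was 1.90 ± 0.45 (adjusted p = 0.0105) but 0.06 under identity scaling (adjusted p = 0.901). The call ended without animal 2 (adjusted p = 0.0561) or animal 4 (0.0708). Trem3, also DAP12-coupled, had at most 3.01 CPM in any library and missed the threshold (3.28 ± 1.35, adjusted p = 0.085), which it passed in DESeq2 (3.22, adjusted p = 0.0328), in limma voom (4.29, adjusted p = 0.0225) and without the negative library of animal 2 (5.67, adjusted p = 0.0124) or both libraries of that animal (5.58, adjusted p = 0.0249). Treml2, which B cells and myeloid cells carry, had 0.569 to 2.15 CPM in positive and 0.55 to 3.03 CPM in negative libraries, with a log2 fold change of -0.19 ± 0.68 (adjusted p = 0.84) that was positive in limma voom (0.22) and without animal 2 (0.15) or animal 4 (0.29).

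The paired immunoglobulin-like receptors, which bind MHC class I among other ligands, rose as a group. All 8, Pirb, 6 Pira genes and Lilra6, were called higher, with log2 fold changes from 1.85 to 2.75, and 0.18 to 1.08 under identity scaling, where Pira2 alone was called. They lie together on chromosome 7, from Pirb (chr7:3712505-3720382) to Lilra6 (chr7:3908277-3915571); the annotation used gave no coordinates for Pira4, Pira6, Pira7 and Pira11. Pirb, the inhibitory member, was at 737, 611, 526 and 574 CPM in positive and 316, 84, 36.4 and 45.3 CPM in negative libraries. Its log2 fold change was 2.35 ± 0.65 (adjusted p = 0.0209), lost without animal 2, 3 or 4 (adjusted p = 0.0927, 0.0609 and 0.0866) or without the negative library of animal 2 alone (0.0625). Pira2, an activating near-copy, was at 125, 111, 108 and 124 CPM in positive and 42.1, 13.3, 6.87 and 6.95 CPM in negative libraries. The groups were well apart, with a log2 fold change of 2.75 ± 0.57 (adjusted p = 0.00605) and 1.08 under identity scaling (adjusted p = 0.0378, or 0.0784 with the block).

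Single Pira genes are uncertain, because the authors' counting could split reads between copies. Of the 50-base words in Pira2 transcripts 90.1% also occurred in another member, as did 86.8% of those of Pira1 and 26.6% of those of Pirb. Pira4 and Pira7 carried nearly the same counts in every library, differing by at most 1.41%, and both had a log2 fold change of 2.69 ± 0.56. Pira4 was at 96.1, 95.9, 96.8 and 115 CPM in positive and 37, 12.9, 5.67 and 6.98 CPM in negative libraries, and Pira7 at 96.6, 96.4, 97.8 and 116 against 37.1, 12.9, 5.75 and 7.05 CPM. Pira1 was at 44.2, 47, 54.5 and 65.4 CPM against 17.6, 7.67, 3.76 and 2.66 CPM, and Pira11 at 29.8, 37, 39.5 and 47.8 CPM against 14.8, 6.3, 2.88 and 2.56 CPM. In these 4 genes the positive library of animal 4 was the highest and the groups did not overlap. Pira6, at 73.5, 62.2, 64.7 and 77.2 CPM against 43.5, 19.8, 5.75 and 7.88 CPM, had the smallest fold change of the family, 1.85 ± 0.57 (adjusted p = 0.0311), and its call ended without animal 2, 3 or 4 (adjusted p from 0.0766 to 0.127). It also ended without any single positive library or the negative one of animal 2 or 4 (adjusted p from 0.0521 to 0.0729). Lilra6, at 22.6, 29.6, 36 and 42.5 CPM against 11, 1.25, 1.8 and 6.15 CPM, was called at 2.68 ± 0.64 (adjusted p = 0.0108) and lost without animal 4 (adjusted p = 0.0636).

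Of the other leukocyte immunoglobulin-like receptors, Lair1 and Lilrb4a were higher. Lair1, an inhibitory receptor for collagen, was at 716, 623, 522 and 662 CPM in positive and 239, 71.1, 36.8 and 47.5 CPM in negative libraries. Its log2 fold change was 2.68 ± 0.57 (adjusted p = 0.00668), and it remained higher against the identity genes (0.99, adjusted p = 0.0443), but not with the block added (adjusted p = 0.097). Lilrb4a, an inhibitory receptor also called gp49B, was at 1089, 814, 715 and 742 CPM in positive and 543, 226, 71.3 and 84.6 CPM in negative libraries. No library crossed over, but the fold change of 1.86 ± 0.60 (adjusted p = 0.0382) was lost without animal 2, 3 or 4 (adjusted p from 0.0924 to 0.123) and was 0.22 under identity scaling. The Lilrb4a call also ended under library-size scaling (adjusted p = 0.0551). So did leaving out any single library except the negative one of animal 1 (adjusted p from 0.0586 to 0.0889). Its neighbour Lilr4b (chr10:51480612-51486329), which shares 24.1% of its 50-base words with it, gave 1.71 ± 0.66 without passing (adjusted p = 0.0697) and passed with the animals as a block (2.27, adjusted p = 0.0108), in DESeq2 (1.68, adjusted p = 0.0136), in limma voom (2.47, adjusted p = 0.00294) and without the negative library of animal 1 (2.63, adjusted p = 0.00524). Lilra5, an activating receptor, was at 106, 105, 129 and 152 CPM in positive and 90.5, 84.9, 12.6 and 20.6 CPM in negative libraries. Although these did not overlap, it did not pass (1.24 ± 0.58, adjusted p = 0.119, and -0.53 under identity scaling), except in limma voom (2.27, adjusted p = 0.00459).

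The CD300 receptors, most of which bind lipids exposed on cells, were mixed: 5 of 11 rose and 6 were not called. Cd300a, an inhibitory receptor for phosphatidylserine and phosphatidylethanolamine (chr11:114889152-114901946), was at 440, 473, 373 and 426 CPM in positive and 105, 29.5, 21.8 and 33.3 CPM in negative libraries. Positive libraries were tightly grouped and all above the negative ones, with a log2 fold change of 3.17 ± 0.49 (adjusted p = 0.00153) and 1.35 under identity scaling (adjusted p = 0.00909). Cd300c2, an activating receptor that pairs with DAP12 or the Fc receptor gamma chain, was the most abundant of the family per length (340 CPM per kb in positive libraries). It was at 412, 444, 320 and 373 CPM in positive and 96.5, 52, 20.5 and 26.8 CPM in negative libraries. Its log2 fold change was 2.98 ± 0.47 (adjusted p = 0.00166), and 1.16 under identity scaling (adjusted p = 0.02, or 0.0564 with the block).

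Cd300lf, an inhibitory receptor that binds sphingomyelin, was at 47.9, 52.5, 28.2 and 24.4 CPM in positive and 6.02, 3.45, 3 and 3.29 CPM in negative libraries, with the smallest adjusted p of all members (3.27 ± 0.35, adjusted p = 2.92e-04). Under identity scaling it was 1.19 and not called (adjusted p = 0.0645). Cd300lb, an activating receptor, was at 109, 140, 129 and 146 CPM in positive and 53.1, 23.6, 12.5 and 16.6 CPM in negative libraries. The groups did not overlap (2.30 ± 0.42, adjusted p = 0.00334), although the change was 0.45 under identity scaling. Cd300c passed at very low levels, with 29 to 77 counts in positive libraries and 6, 0, 0 and 0 in negative ones (4.47 ± 1.27, adjusted p = 0.0227), and did not pass without animal 2, 3 or 4 (adjusted p from 0.0678 to 0.11). It also did not pass under identity scaling (3.23, adjusted p = 0.0656). Leaving out the negative library of animal 3, or the positive one of animal 3 or 4, ended the Cd300c call too (adjusted p = 0.0548, 0.0624 and 0.0588).

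Cd300ld, an activating receptor, was at 277, 281, 228 and 263 CPM in positive and 188, 114, 29.2 and 33.9 CPM in negative libraries. It did not overlap between groups and did not pass (1.52 ± 0.55, adjusted p = 0.0564, and -0.20 under identity scaling), but did so with the animals as a block (1.95, adjusted p = 0.0196), in DESeq2 (1.49, adjusted p = 0.0117), in limma voom (2.24, adjusted p = 0.0022) and without the negative library of animal 1 (2.16, adjusted p = 0.0084). The rows of its relatives Cd300ld4 and Cd300ld5 held identical counts in all 8 libraries, and 100% and 93.8% of the 50-base words of Cd300ld5 and Cd300ld4 occurred in another member, so they are a single measurement. That value (1.29) and Cd300ld3 (1.33), both at most 4.55 CPM, were not called and turned to -0.29 and -0.31 under identity scaling; without the negative library of animal 1 they passed, at 2.44 (adjusted p = 0.00993) and 2.34 (adjusted p = 0.0167), and the former also in limma voom (2.05, adjusted p = 0.0467). Cd300e, which marks some monocytes, had 4.41 to 4.69 CPM in positive and 0 to 1.41 CPM in negative libraries (2.70 ± 1.25, adjusted p = 0.117, but 3.78 with adjusted p = 0.0278 in limma voom).

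Signal regulatory proteins showed large differences between a receptor and its activating relatives. Sirpa, the inhibitory receptor for CD47 (chr2:129591042-129632228), was at 1551, 1131, 1244 and 1317 CPM in positive and 635, 190, 120 and 91.7 CPM in negative libraries. It was called at 2.34 ± 0.58 (adjusted p = 0.0129), a call that ended without animal 2, 3 or 4 (adjusted p = 0.0625, 0.0568 and 0.0558), and was 0.65 under identity scaling (adjusted p = 0.18). Sirpb1a, an activating DAP12-coupled relative on chromosome 3 (chr3:15371661-15426522), was at 152, 142, 89.8 and 104 CPM in positive libraries. In negative libraries it was at 9.6, 1.07, 2.76 and 0 CPM. The log2 fold change was 5.15 ± 1.05 (adjusted p = 0.00548), and 3.54 under identity scaling (adjusted p = 0.0112). Sirpb1b followed the same pattern, at 76.8, 83.4, 42.8 and 45.6 against 6.48, 1.01, 1.68 and 0.698 CPM (4.62 ± 0.71, adjusted p = 0.0015). These copies share 33.8% and 27.1% of their 50-base words with members, so reads may be split between them.

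The 3 PILR genes lie side by side on chromosome 5 (chr5:137821952-137871758) and all rose. Pilra, the inhibitory member, was at 245, 360, 258 and 261 CPM in positive and 46.6, 27.2, 14.1 and 19.6 CPM in negative libraries, far apart (3.39 ± 0.37, adjusted p = 3.10e-04). It was 1.44 under identity scaling (adjusted p = 0.00641). Pilrb1, activating through DAP12, was at 78.2, 135, 91.2 and 94.7 CPM against 19.9, 12.8, 6.11 and 5.58 CPM (3.17 ± 0.43, adjusted p = 8.80e-04). Pilrb2 was at 82.3, 126, 88.3 and 90.7 CPM against 26.1, 11.4, 8.23 and 6.98 CPM (2.88 ± 0.42, adjusted p = 0.00122). Under identity scaling Pilrb1 stayed called (1.27, adjusted p = 0.0184) and Pilrb2 did not (0.99, adjusted p = 0.0588). In each PILR gene animal 2 had the highest positive library.

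Cd200r1, the inhibitory receptor for CD200, was scarce and differed by animal. It was at 24.9, 24.6, 38.6 and 49.6 CPM in positive and 23.9, 18.7, 8.11 and 9.54 CPM in negative libraries, so in animal 1 the populations were nearly level. The log2 fold change of 1.19 ± 0.39 (adjusted p = 0.0401) turned to -0.78 under identity scaling, did not pass with the animals as a block (1.27, adjusted p = 0.078) and was lost without animal 2, 3 or 4 (adjusted p from 0.0623 to 0.203). Library-size scaling also ended the call (0.93, adjusted p = 0.0815). So did leaving out the positive library of animal 1, 3 or 4 or the negative one of animal 2, 3 or 4 (adjusted p from 0.0505 to 0.113). Cd200r4, an activating relative, had 8.46 to 16.4 CPM in positive and 0 to 8.53 CPM in negative libraries and was not called (1.43 ± 1.06, adjusted p = 0.311, and -0.23 under identity scaling).

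The 3 enzymes downstream of both receptor classes had log2 fold changes of 1.0 to 1.78, all of which turned negative under identity scaling. Syk, the kinase recruited by ITAMs, was at 342, 287, 252 and 240 CPM in positive and 173, 148, 135 and 106 CPM in negative libraries. The groups were apart at a log2 fold change of 1.0 ± 0.18 (adjusted p = 0.00331), which was -1.20 under identity scaling (adjusted p = 0.0233). Ptpn6 was even within groups, at 606, 636, 609 and 625 CPM in positive and 303, 295, 217 and 251 CPM in negative libraries. Its log2 fold change was 1.22 ± 0.14 (adjusted p = 4.05e-04), and -0.99 under identity scaling (adjusted p = 0.0559). Inpp5d, whose promoter is printed above, was at 547, 364, 455 and 447 CPM in positive and 209, 137, 84.6 and 95.6 CPM in negative libraries. It gave 1.78 ± 0.29 (adjusted p = 0.00201), and -0.24 under identity scaling (adjusted p = 0.613).

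Mpeg1 encodes perforin-2, a pore-forming protein of phagocyte compartments. It was at 550, 723, 1057 and 1270 CPM in positive and 120, 104, 36 and 33.1 CPM in negative libraries. The positive libraries of animals 3 and 4 were high and their negative libraries low, so the difference in log2 CPM was 2.19 and 2.80 in animals 1 and 2 and 4.87 and 5.26 in animals 3 and 4. The log2 fold change was 3.62 ± 0.51 (adjusted p = 0.00108), and 1.72 under identity scaling (adjusted p = 0.00227).

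Both members called lower are best known from B cells. Fcrla, an intracellular Fc receptor-like protein, was at 0.35, 1.57, 4.1 and 2.76 CPM in positive and 24.5, 109, 48.4 and 82.7 CPM in negative libraries, with no overlap (-4.91 ± 0.75, adjusted p = 0.00152). Fcer2a, the low-affinity IgE receptor CD23, was at 0.56, 1.67, 1.4 and 1.05 CPM in positive and 0.245, 74, 18.2 and 28.5 CPM in negative libraries. The negative library of animal 1 was below all positive ones, so the groups overlapped (-4.69 ± 1.22, adjusted p = 0.016), and the call ended without animal 2, 3 or 4 (adjusted p = 0.0724, 0.0587 and 0.0822) and in limma voom (-3.29, adjusted p = 0.159). Fcrl1, also a B cell receptor, did not pass (-1.09 ± 0.39, adjusted p = 0.052) but did with the animals as a block (-0.93, adjusted p = 0.0454), in DESeq2 (-1.12, adjusted p = 0.0174), in limma voom (-0.85, adjusted p = 0.0381) and without the negative library of animal 1 (-1.34, adjusted p = 0.00819). The summed level of 10 B cell markers was 161 to 188 CPM in positive libraries and 490, 1724, 863 and 1105 CPM in negative ones; 0 of the 10 were at 0 in all libraries. Animal 1 was thus lowest and animal 2 highest among the negative libraries for this sum, for Fcrla, for Fcer2a and for Fcrl1, and the part of B cells in these results was not tested.

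The other receptors of mixed function gave no common direction. Fcrls, a marker of microglia and some tissue macrophages, was at 420, 229, 698 and 839 CPM in positive and 580, 316, 139 and 190 CPM in negative libraries. It was lower in the positive library of animals 1 and 2 and higher in that of animals 3 and 4, and was not called (0.83 ± 0.51, adjusted p = 0.224, and -1.04 under identity scaling, adjusted p = 0.0468), although limma voom called it higher (1.53, adjusted p = 0.0242). Fcgrt, the neonatal Fc receptor that recycles IgG, had 273 to 295 CPM in positive and 143 to 326 CPM in negative libraries (0.40 ± 0.23, adjusted p = 0.195, and -1.69 under identity scaling, adjusted p = 0.00213), and was called higher in limma voom (0.64, adjusted p = 0.0167) and without the negative library of animal 1 (0.67, adjusted p = 0.00675). Fcrlb, an intracellular relative of Fcrla, was in contrast higher in positive cells, at 5.87 to 15 CPM against 0.639 to 2.84 CPM (2.78 ± 0.58, adjusted p = 0.0061), but not called under identity scaling (0.98, adjusted p = 0.303). Cd300lg, an endothelial receptor for lymphocytes, was lower in the positive library of each animal, at 2.45, 6.19, 16.9 and 12.3 CPM against 7.37, 11.5, 43.9 and 15.2 CPM. Its fold change of -1.04 ± 0.68 did not pass (adjusted p = 0.253) but did so with the block (adjusted p = 0.0259). Endothelial markers summed to 152, 214, 1657 and 918 CPM in the same negative libraries and to 95.3 to 235 CPM in positive ones.

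Activating and inhibitory receptors were compared within each library, where the scaling of libraries cannot move the result. Such a ratio does not correct for the mix of cells. Plasma cell markers summed to 1329 to 2855 CPM in positive and 76312 to 146891 CPM in negative libraries, and the part of other cells was not tested. Levels were divided by gene length and summed over 29 activating and 9 inhibitory receptors. The activating sum was 2416, 2682, 2056 and 2299 CPM per kb in positive and 1042, 550, 213 and 273 in negative libraries. The inhibitory sum was 2632, 2319, 1920 and 2095 CPM per kb in positive and 1095, 464, 204 and 220 in negative libraries. Both sums were larger in the positive library of each animal, and the 2 sums were near each other within every library.

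The log2 ratio of activating to inhibitory sums was -0.12, 0.21, 0.10 and 0.13 in positive libraries and -0.07, 0.25, 0.06 and 0.31 in negative ones. Means were 0.08 ± 0.14 and 0.14 ± 0.18 (SD, n = 4 each), and the difference of -0.06 was smaller than the spread within either group. By animal it was -0.05, -0.04, 0.04 and -0.18. The sign of so small a difference depended on the choices: it was -0.22 without dividing by length, 0.18 without Fcgr3 and Fcgr2b, the largest member of each class, 0.01 without the positive library of animal 1 and 0.00 without the negative library of animal 4.

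**Figure D3:**
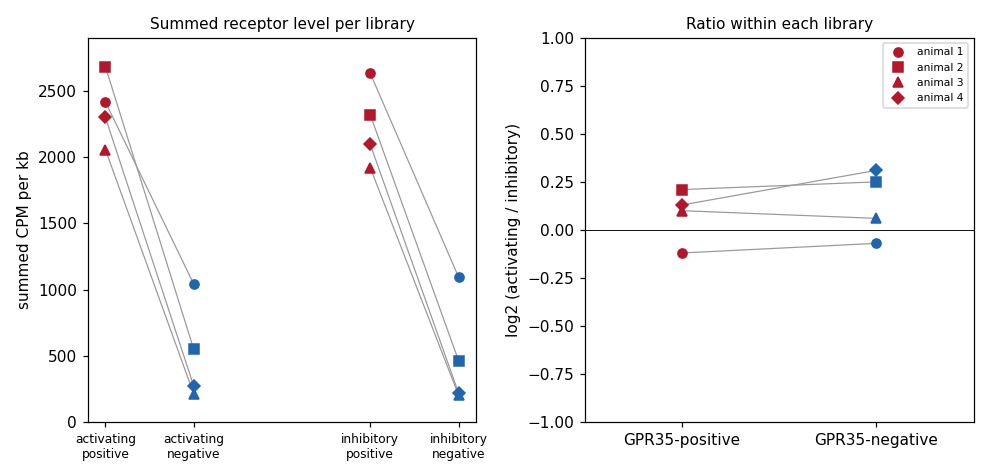
Left, summed level in CPM per kb of 29 activating and 9 inhibitory receptors in each library; right, the log2 ratio of these sums, with lines joining the GPR35-positive and GPR35-negative library of each animal. Both sums fall from 1920 or more in positive libraries to 1095 or less in negative ones, while the ratio stays between -0.12 and 0.31 in all 8.

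The make-up of each class did differ. Fcgr3 supplied 38.1% of the activating sum in positive and 52.6% in negative libraries, Cd300c2 14.3% and 8.37%, Fcgr4 8.47% and 5.35%, and Sirpb1a 4.15% and 0.49%. Of the inhibitory sum, Fcgr2b gave 32.8% and 39.3%, Lilrb4a 24.9% and 28.6%, Sirpa 13.8% and 11.7%, and Pirb 10.0% and 7.83%. These are means over 4 libraries and were not tested.

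Ratios between relatives, 16 in all, showed which pairs moved unequally. They do not depend on scaling, no p is given for them, and the part of other cells in them was not tested. Fcgr4 relative to Fcgr2b was 0.284, 0.278, 0.259 and 0.267 per length in positive and 0.211, 0.127, 0.152 and 0.111 in negative libraries, so the activating receptor gained on the inhibitory one without overlap. Fcgr1 and Fcgr3 relative to Fcgr2b overlapped between groups. Sirpb1a relative to Sirpa was 0.339, 0.435, 0.25 and 0.274 against 0.0524, 0.0195, 0.0795 and 0, also apart, and Sirpb1b relative to Sirpa was apart in the same direction (0.098 or more against 0.0399 or less).

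Other pairs moved the opposite way. Cd300ld relative to Cd300a was 1.2, 1.13, 1.17 and 1.18 in positive and 3.42, 7.38, 2.55 and 1.94 in negative libraries, so that the activating receptor was the smaller share in positive cells. Cd300lb relative to Cd300a (0.398 to 0.556 against 0.803 to 1.29) and Pilrb2 relative to Pilra (0.481 to 0.503 against 0.511 to 0.838) did the same. Pilrb1 relative to Pilra, Pira2 relative to Pirb, Cd300c2 relative to Cd300a, Lilr4b relative to Lilrb4a and Cd200r4 relative to Cd200r1 overlapped between groups. Within animals, however, Pira2 relative to Pirb was higher in the positive library of all 4 (0.134, 0.143, 0.161 and 0.169 against 0.105, 0.125, 0.149 and 0.121), as was Cd200r4 relative to Cd200r1. Between adaptors, Tyrobp relative to Fcer1g was 0.819, 0.801, 0.813 and 0.859 in positive and 0.732, 0.745, 0.634 and 0.601 in negative libraries, without overlap. Syk and Inpp5d relative to Ptpn6 overlapped between groups, but within animals Inpp5d relative to Ptpn6 was higher in the positive library in 4 of 4 and Syk relative to Ptpn6 in 0 of 4.

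**Figure D4:**
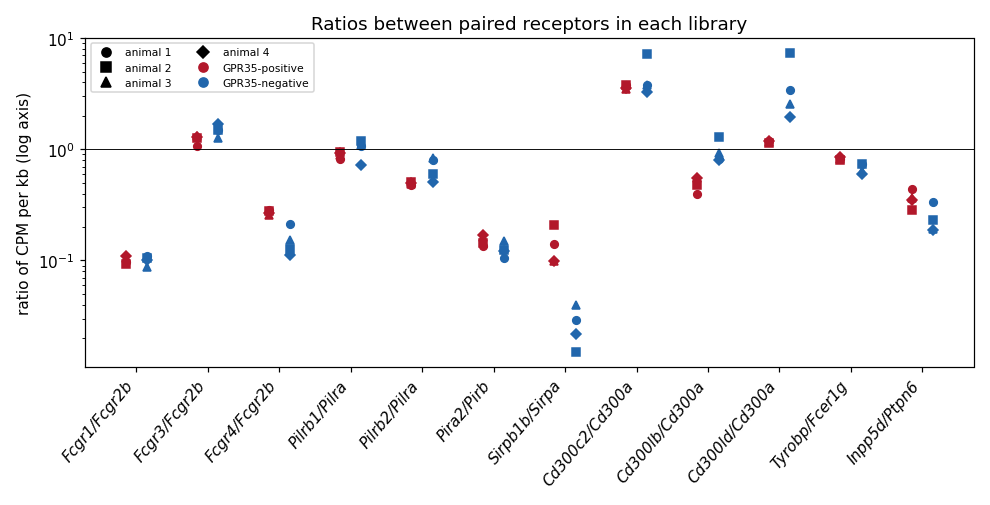
Ratio of CPM per kb (log axis) between 12 pairs of related members in each library, red for GPR35-positive and blue for GPR35-negative, with a marker shape for each animal. Fcgr4/Fcgr2b, Sirpb1b/Sirpa and Tyrobp/Fcer1g are higher in positive libraries, Pilrb2/Pilra, Cd300lb/Cd300a and Cd300ld/Cd300a lower, each without overlap, and the other 6 pairs overlap.

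Most members varied more among negative than among positive libraries. Of the 46 tested members above 0 in every library, 43 had the larger fold between the highest and lowest library in the negative group, with medians of 5.21 and 1.48 in the negative and positive group; Cd300lf, Cd300lg and Fcrla went the other way. The negative library of animal 1 was the highest of its group for 45 of the 53 tested members, and that of animal 3 the lowest for 30. For Pirb the highest negative library was 8.68 times the lowest, against 1.40 times among positive libraries; for Sirpa these were 6.92 and 1.37 times, and for Fcgr1 4.92 and 1.30 times. The median difference of the members in log2 CPM between the populations of an animal was 1.22, 2.54, 3.32 and 3.14 for animals 1 to 4. The identity genes had the same order of animals among negative libraries at both ends, with animal 1 highest and animal 3 lowest, and medians of 0.99, 2.23, 3.13 and 2.61.

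Genes that act downstream of the receptors were taken as lists. Of 34 genes of ITAM signalling, 21 rose and 3 fell in positive cells (18.5% and 19.5% of all genes), with a median of 1.28; under identity scaling 2 rose and 16 fell (0.776% and 81.5% of all genes), with a median of -0.86 beside -2.35 for all genes. The 5 with the smallest p were Src and Prkcd, a SRC family kinase and a protein kinase C, Fgr and Lyn, which phosphorylate ITAMs and ITIMs, and Lat, an adaptor of T cells and mast cells. Fgr was at 287, 222, 201 and 211 CPM in positive and 17.3, 19.9, 14.5 and 2.73 CPM in negative libraries (4.08 ± 0.53, adjusted p = 7.56e-04), and still rose under identity scaling (1.97, adjusted p = 0.00203). Src (2.09 ± 0.20), Prkcd (2.04 ± 0.26) and Lyn (1.95 ± 0.27) were higher on the TMM scale and slightly negative under identity scaling (-0.19, -0.03 and -0.09). Lat fell (-3.11 ± 0.46, adjusted p = 0.00121); 11 markers of T and NK cells summed to 29.3 to 43.9 CPM in positive and 328 to 564 CPM in negative libraries, and their part was not tested.

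Of 18 genes of ITIM signalling or other brakes on tyrosine kinases, 8 rose and 2 fell (18.5% and 19.5% of all genes), with a median of 0.45; under identity scaling 12 fell (81.5% of all genes), and the highest value was 0.32 for Ptprc (adjusted p = 0.517). Ptprc, the phosphatase CD45, had the largest rise (2.36 ± 0.33, adjusted p = 0.00108), followed among the 5 with the smallest p by Cbl, a ubiquitin ligase (1.82 ± 0.33), and by the adaptors Sla (1.09 ± 0.15) and Dok1 (1.09 ± 0.18). Sla, Dok1 and Cbl turned negative under identity scaling (-1.12, -1.12 and -0.19). Sla2, an adaptor of lymphocytes, fell (-0.66 ± 0.11, adjusted p = 0.00243).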

How the data were processed

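Low-input RNA sequencing was done on GPR35-positive and GPR35-negative cells of 4 male mice, 8 libraries in all. Per the labels' protocols, cDNA was made with SMART-Seq v4 and libraries with Nextera XT, which mark neither strand nor molecules, so PCR copies are counted and overlapping genes cannot be told apart. The authors deposited whole-number read counts per gene, per the file headers, with a gene length in bases that was used here for levels per kb. The mm10 build, STAR 2.5.2a and R 3.4.2 are named per the submitters' processing notes; how reads were counted, and on which annotation, is not stated.

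The 9 rows without a symbol (0.0179% of counts) were left out. The test was run in edgeR 4.0.16 (R 4.3.3): filterByExpr (minimum count 10, minimum total 15), TMM scaling and a robust quasi-likelihood F-test with no block, with Benjamini-Hochberg adjustment over the 14184 genes tested. The SE is the fold change divided by the square root of F. CPM uses TMM library sizes, and log2 CPM a prior count of 2. Each animal gave a library to both groups, so the numbers pair the libraries. Paired deviations from group means correlated across genes at 0.206, 0.206, 0.431 and 0.0637, against at most 0.104, 0.104, 0.237 and 0.237 with another animal. The paired value was thus the larger for animals 1 to 3 but the smaller for animal 4, whose pairing rests on the labels alone. The fit with the animals as a block was an alternative because no model is stated. No replicates agreed within counting noise (smallest chi-square per degree of freedom 26.6). P-values of the main fit measure the spread among the 4 libraries within each group. They do not measure the spread of the paired differences, which the fit with the block uses. On simulated counts for 14028 genes of this comparison, 67% of 200 genes changed by a log2 fold of 2 were recovered and 4.96% of the calls were false. The simulation gave both groups the same spread, no animal effect and few changed genes. These rates therefore need not hold for the real libraries.

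The members, their roles and the lists were chosen with earlier results of these data known. By the rule for named genes, every member could be named; values in each library were given for called members whose mean was 3 log2 CPM or more and for the adaptors, enzymes and main receptors, and from each list up to 5 genes with the smallest p were named. Others are marked, and a list gene is not reported here. Coordinates (50 of 54 members) and promoters (43) came from RefSeq on GRCm38.p6, and transcripts for shared 50-base words from GENCODE (51). The other settings were RLE, library-size and identity scaling, other count filters, DESeq2 1.42.0, limma 3.58.1 voom, no robust estimation, the block, and leaving out each library or animal.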

Additional observations from a re-analysis of the deposited data

Results flagged for a closer look

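Each member was examined for a library far from the other 3 of its group, relative to the group's whole range, in 108 groups of 4, of which 4 were picked out; chance picks out about 1 in 20 groups. Pira4 was at 115 CPM in the positive library of animal 4, with the other 3 at 95.9 to 96.8 CPM. Pira7, which shares nearly all its counts with Pira4, was at 116 CPM in the same library and at 96.4 to 97.8 CPM in the others. Pilra was at 360 CPM in the positive library of animal 2 and at 245 to 261 CPM in the others. Cd300c was at 0.183 CPM in the negative library of animal 1, from 6 counts, and at 0 in the other negative libraries.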

How the results depend on the processing

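Identity scaling changed most results. With it, the count of all genes higher was 110 and of all genes lower 11559, 11 members were higher and 9 lower, 7 activating and 3 inhibitory receptors were higher, ITAM genes were 2 higher and 16 lower, and ITIM genes 0 higher and 12 lower. With identity scaling and the replicate block together these were 122, 10334, 8, 5, 5, 2, 2, 14, 0 and 10. Fold changes reversed under identity scaling, and with the block added, for Cd300ld3 (-0.31 and -0.29), Cd300ld4 and Cd300ld5 (-0.29 and -0.24), Cd300ld (-0.20 and -0.14), Fcgr3 (-0.08 both), Fcgrt (-1.69 and -1.62), Ptpn6 (-0.99 and -0.86), Inpp5d (-0.24 and -0.23), Syk (-1.20 and -1.09), Lilra5 (-0.53 and -0.38), Hcst (-1.31 and -1.24), Cd200r1 (-0.78 and -0.81), Fcrls (-1.04 and -1.19) and, by identity scaling alone, Cd200r4 (-0.23). The cause was not tested. Library-size scaling gave 1692 genes higher and 4193 lower. With the replicate block alone 4 members were lower in place of 2, Cd300lg and Fcrl1 being added; 36 of the 37 higher calls were kept, Cd200r1 was lost, Cd300ld and Lilr4b were gained, and no other call of a member changed. DESeq2 and no count filter each kept all 37 higher calls; voom kept 36, losing Trem1, and also lost Fcer2a. DESeq2 called 40 members higher and 3 lower, and voom 45 and 2.

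Leaving out a library or an animal, with fewer samples, gave 1572 to 2931 for all genes higher and 1680 to 3035 for all genes lower, 26 to 43 members higher and 1 to 3 lower, 14 to 24 activating and 5 to 9 inhibitory receptors higher. Of the 37 higher members, 35, 28, 29 and 26 stayed called without animals 1, 2, 3 and 4. The Treml2 log2 fold change, not called, reversed to 0.22 in voom and ran from -0.56 to 0.29 without a library or animal, above 0 without negative library 4 (0.29), positive library 2 (0.08), animal 2 (0.15) or animal 4 (0.29). The log2 activating to inhibitory ratio, -0.06, was -0.22 without length division, 0.18 without the largest member of each class, -0.07 without the 5 members that share at least 50% of their 50-base words (added after seeing the data), and -0.13 to 0.01 without a library or animal. Pira4 and Pira7, with nearly the same counts, had no transcripts to compare, so the ratio without those 5 members still held both. The planned ratio without members of similar protein was not run, since protein sequences were not used here. Members under about 5 CPM rest on few counts and are the least certain.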

Other observations

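Known ligands and partners of these receptors were present in the same libraries. Of 23 tested, 6 rose and 12 fell in positive cells (18.5% and 19.5% of all genes), with a median log2 fold change of -1.65; under identity scaling 18 fell (81.5% of all genes) and no other passed, the highest being Lgals3. Apoe, an apolipoprotein bound by TREM2, was at 26337, 29877, 27281 and 29745 CPM in positive and 11882, 7046, 3098 and 3967 CPM in negative libraries (2.12 ± 0.40, edgeR adjusted p = 0.00383), and 0.23 under identity scaling. Lgals3, the lectin galectin-3, rose by 2.54 ± 0.26 on the log2 scale (adjusted p = 2.58e-04), and was 0.36 under identity scaling. Both followed the receptors in having animal 1 as the highest negative library.

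Other genes of the list fell. Col1a2, a chain of the collagen bound by LAIR1, was at 59.6, 13.9, 105 and 63.2 CPM in positive and 696, 256, 759 and 840 CPM in negative libraries (-3.40 ± 0.61, adjusted p = 0.00306). Col6a1 (-3.22 ± 0.55) and Angptl2 (-3.55 ± 0.47), a secreted protein that binds PIRB, also fell, whereas Thbs1, a matrix protein chosen after its values were seen, rose (2.76 ± 0.61, adjusted p = 0.00796, but 0.27 under identity scaling, adjusted p = 0.734). Markers of epithelium and stroma summed to 158 to 780 CPM in positive and 2827 to 5618 CPM in negative libraries, and their part was not tested. Chosen after their values were seen, Cd200, the ligand of CD200R1, fell (-3.13 ± 0.68, adjusted p = 0.00722), while Cd47, the ligand of SIRPA, had 370 to 421 CPM in positive and 436 to 501 CPM in negative libraries and did not pass (-0.24 ± 0.11, adjusted p = 0.12).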
